A study of Mus musculus with 15 samples.

Results

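The CCR7 ligand chemokines were followed in mammary glands of BALB-neuT mice of 4 ages. The members are Ccl19, Ccl21a and Ccl21b, taken as all probes whose RefSeq accession in the array files belongs to 1 of these genes, by a rule that uses no measured value. This gave 4 of the 33012 gene probes of the array, and 3 of the 306 genes that could be named on it. The genes themselves were chosen with earlier results of these data known, so their tests here are not independent of that choice. Ccl19 (NM_011888.2) and Ccl21a (NM_011124.3) have 1 probe each. Ccl21b (NM_011335.1) has 2 probes, which are told apart here as the brighter and the dimmer by their mean signal. The groups were glands of animals aged 10 weeks (5 arrays), 15 weeks (2 arrays), 19 weeks (4 arrays) and 22 weeks (4 arrays), with RNA of 1 animal on each array per the series design. All animals were BALB-neuT mice, whose activated rat HER-2/neu transgene is driven by a mammary tumour virus promoter and which develop carcinomas in the mammary glands. The series design places the 4 ages along the course of that carcinogenesis. No mice without the transgene were analysed here, so ageing of the normal gland and carcinogenesis cannot be told apart.

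CCL19 and CCL21 are chemokines that bind the receptor CCR7 on naive T cells, central memory T cells and mature dendritic cells. Both proteins are made by stromal cells of the T cell zone of lymph nodes, CCL21 is also made by high endothelial venules and lymphatic vessels, and together they draw CCR7-bearing cells into lymphoid tissue. The fat pad of the mouse mammary gland holds a lymph node, and both chemokines are also known from lymphoid aggregates that form in inflamed tissues and tumours. The mouse carries several nearly identical Ccl21 genes: Ccl21a encodes the form known from lymphoid organs, and Ccl21b a form known from lymphatic vessels of other tissues.

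All 3 genes lie on mouse chromosome 4. In the RefSeq annotation Ccl19 and Ccl21a are direct neighbours, with 0 coding genes between them. The RefSeq table of assembly GRCm38.p6 annotates 1 further copy of Ccl19 (Gm2023) and 4 further copies of Ccl21 (Ccl21c, Ccl21d, Gm13304 and Gm10591). The probe sequences were not used here, so the signal of a Ccl21 probe cannot be assigned to 1 copy. The promoters of the neighbouring pair are shown because these genes moved together in the values that follow. Each run gives the 250 bases before the annotated gene start on the minus strand, credited to RefSeq, and capitals mark the letters CATAAAT. The Ccl19 window is chr4:42756366-42756615 and the Ccl21a window is chr4:42773992-42774241, both on GRCm38.p6.
Ccl19: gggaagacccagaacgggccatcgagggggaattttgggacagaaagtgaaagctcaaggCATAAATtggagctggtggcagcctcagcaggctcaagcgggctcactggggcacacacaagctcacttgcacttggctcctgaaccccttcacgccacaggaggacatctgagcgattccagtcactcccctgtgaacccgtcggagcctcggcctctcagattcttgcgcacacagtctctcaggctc
Ccl21a: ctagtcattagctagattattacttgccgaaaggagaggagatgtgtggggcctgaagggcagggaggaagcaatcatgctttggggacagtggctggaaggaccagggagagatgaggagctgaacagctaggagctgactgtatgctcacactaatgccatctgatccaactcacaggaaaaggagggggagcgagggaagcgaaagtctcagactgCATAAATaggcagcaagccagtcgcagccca
Both strands were searched for TATAAA, the letters of the TATA box, and for CATAAAT, which resembles it, and no match overlaps another. Both windows hold CATAAAT, at bases -190 to -184 from the Ccl19 start and -31 to -25 from the Ccl21a start. It occurs in 2.79% of 32536 promoter windows. Neither window holds TATAAA, found in 12.3% of windows. The Ccl21a window matches that of the copy Ccl21d at 248 of 249 bases compared (99.6%), while it matches the window of the member Ccl21b at 32.8% of bases, with a longest shared run of 10, and that of Ccl19 at 27.6%, with a longest shared run of 8. A match of letters is a description and shows no binding.

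Values are log2 of the scanner's chemiluminescence signal after quantile normalization, so that 1 unit stands for a doubling, and a change is the later age minus the earlier one. Above background means a signal-to-noise ratio of 3 or more and a quality flag under 5000. Between 46.1% and 53.9% of probes were above background on an array, and the median raw signal ranged from 650.2 to 1626. The filter on dim probes asked for a signal above background on 50% or more of an age's arrays, in 1 age or several, and kept 20867 probes. All 4 chemokine probes passed this filter and were above background on 15 of 15 arrays, with the lowest signal-to-noise ratio for Ccl19 at week 10 replicate 2 (3.10). No array pair held identical values. As a check of the tissue, the milk protein genes Csn1s2a, Csn2 and Csn1s2b were above background on 14, 9 and 7 of 15 arrays, and Aoc3, an amine oxidase of fat and vessel walls, on 15 of 15. The hair keratin gene Krt25 stood at 18.74, 17.62 and 15.33 in week 10 replicates 1, 2 and 4 and at 8.32 and 8.06 in replicates 3 and 5, so 3 of the week 10 arrays also carried hair RNA. Precision is limited by how few arrays there are, above all at week 15.

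Ccl19 was lowest in the youngest glands and highest at week 19. At week 10 it had log2 signals of 10.54, 10.09, 11.38, 12.03 and 12.47, a mean of 11.30 ± 0.99 (SD, n = 5). At week 15 the 2 arrays had 15.04 and 11.72 (13.38 ± 2.35, SD, n = 2). At week 19 the values were 16.43, 16.56, 15.63 and 16.57, a mean of 16.30 ± 0.45 (SD, n = 4). At week 22 they were 12.71, 12.45, 14.40 and 14.67 (13.56 ± 1.14, SD, n = 4). The week 19 arrays lay close together and above every array of the other ages, whereas week 15 held 1 high and 1 low array and week 22 held 2 of each.

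Ccl21a followed the same course. Its log2 signals were 13.23, 12.38, 13.12, 13.92 and 13.58 at week 10 (13.25 ± 0.58, SD, n = 5) and 16.96 and 14.06 at week 15 (15.51 ± 2.05, SD, n = 2). At week 19 they were 18.30, 18.14, 17.48 and 18.38 (18.08 ± 0.41, SD, n = 4), and at week 22 they were 14.25, 14.10, 16.89 and 17.06 (15.57 ± 1.62, SD, n = 4). The high week 15 array, replicate 1, and the high week 22 arrays, replicates 3 and 4, were the ones that were high for Ccl19.

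Both Ccl21b probes gave this pattern again. The brighter one averaged 13.94 ± 0.49, 16.08 ± 2.09, 18.59 ± 0.42 and 16.04 ± 1.65 (SD, n = 5, 2, 4 and 4) in glands of 10, 15, 19 and 22 weeks. On single arrays it had 17.56 and 14.61 at week 15 and 14.72, 14.52, 17.27 and 17.65 at week 22. The dimmer one averaged 13.35 ± 0.60, 15.71 ± 1.55, 18.24 ± 0.35 and 15.78 ± 1.53 at the ages of 10, 15, 19 and 22 weeks. Its single arrays had 16.81 and 14.62 at week 15 and 14.25, 14.68, 17.02 and 17.17 at week 22. At week 10 the brighter probe ranged from 13.37 to 14.68 and the dimmer from 12.51 to 14.17, and at week 19 from 17.99 to 18.88 and from 17.80 to 18.66. The same arrays were high and low in both probes at weeks 15 and 22.

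**Figure D1:**
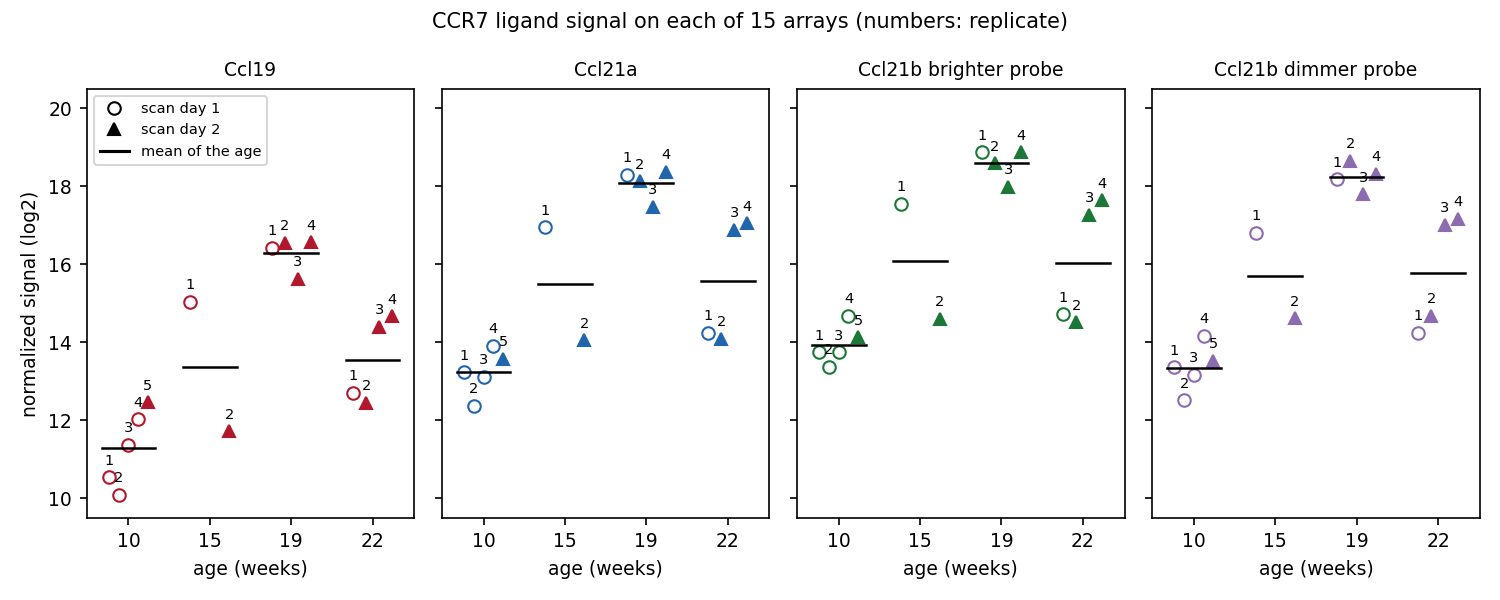
Normalized log2 signal (vertical axis) of each of the 4 chemokine probes against age in weeks, with 1 point per array, its replicate number above it, open circles for scan day 1, filled triangles for scan day 2 and a bar at the mean of the age. Week 19 arrays sit together at the top, and weeks 15 and 22 each split into high and low arrays.

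In all 4 probes the order of the mean levels was week 10, then weeks 15 and 22 at about the same level, then week 19. The 4 ages differed for each probe in limma's moderated F test, with F = 17.3 for Ccl19 (adjusted p = 0.00288), 16.3 for Ccl21a (adjusted p = 0.00353), 14.9 for the brighter Ccl21b probe (adjusted p = 0.00463) and 20.6 for the dimmer one (adjusted p = 0.00162). The adjusted p is by Benjamini-Hochberg over the 20867 kept probes and the threshold was 0.05, which 16.1% of those probes passed in the F test. Of the neighbours in the order, weeks 15 and 22 did not differ beyond their spread, and neither week 15 against week 10 nor week 22 against week 19 passed in any of the 4 probes. Week 22 against week 10 passed for Ccl21a and the dimmer Ccl21b probe only, beside 7.78% of kept probes as higher. Week 19 against week 15 passed for Ccl19 only, beside 6.66%. In whole tissue, more cells of a type and more RNA per cell cannot be told apart.

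Week 19 glands were set against week 10 glands to compare a late stage with the earliest one. All 4 probes rose at week 19. Ccl19 rose 31.9-fold, a log2 change of 5.00 ± 0.69 (SE, 95% interval 3.50 to 6.49, limma adjusted p = 0.000565). Ccl21a rose 28.5-fold (4.83 ± 0.69, limma adjusted p = 0.000718). Its interval ran from 3.34 to 6.32, so these changes of Ccl19 and Ccl21a lay well within each other's error. The brighter Ccl21b probe rose 25.1-fold (4.65 ± 0.70, limma adjusted p = 0.000991) and the dimmer 29.7-fold (4.89 ± 0.62, limma adjusted p = 0.00029). For comparison, 7.28% of the kept probes passed as higher at week 19, and the median change of all kept probes was -0.02. The values of the 2 ages did not overlap in any of the 4 chemokine probes, which was also so, with week 19 higher, for 9.37% of kept probes. The gap between the lowest week 19 and the highest week 10 array was 3.16 for Ccl19, 3.56 for Ccl21a, 3.31 for the brighter and 3.63 for the dimmer Ccl21b probe. Ordered by size of increase among the 20867 kept probes, Ccl19 took place 53, the dimmer Ccl21b probe 61, Ccl21a 65 and the brighter Ccl21b probe 77.

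Batches were then taken into account. The file headers give 2 scan days, and the serial numbers of the arrays fall into 4 runs, called array series 1 to 4. The changes ranged from 4.70 to 4.95 when scan day was a block and from 4.56 to 4.88 when array series was one. All 4 probes passed limma in both, as did 1071 and 1471 of all kept probes as higher. Within scan day 1, with 1 array against 4, the change of Ccl19 was 5.42 (limma adjusted p = 0.0944), and those of Ccl21a, the brighter and the dimmer Ccl21b probe were 5.14, 4.99 and 4.87. Within scan day 2, with 3 arrays against 1, the change of Ccl19 was 3.78 (limma adjusted p = 0.0961), and the others were 4.42, 4.36 and 4.73. None of the 4 probes passed within a scan day. Within array series 3, with 2 arrays against 2, the changes were 4.32, 4.51, 4.34 and 4.64, and within series 4, with 1 against 3, they were 4.96, 4.57, 4.36 and 4.79. All 4 probes passed in series 3, as did 177 of all kept probes as higher. In series 4 the single week 19 array has no spread of its own and takes it from the other ages. Without the 3 week 10 arrays that carried hair RNA, the changes were 4.37 for Ccl19, 4.72 for Ccl21a, 4.65 for the brighter and 4.89 for the dimmer Ccl21b probe. All passed (limma adjusted p = 0.0069 to 0.016), as did 1528 of all kept probes as higher.

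**Figure D2:**
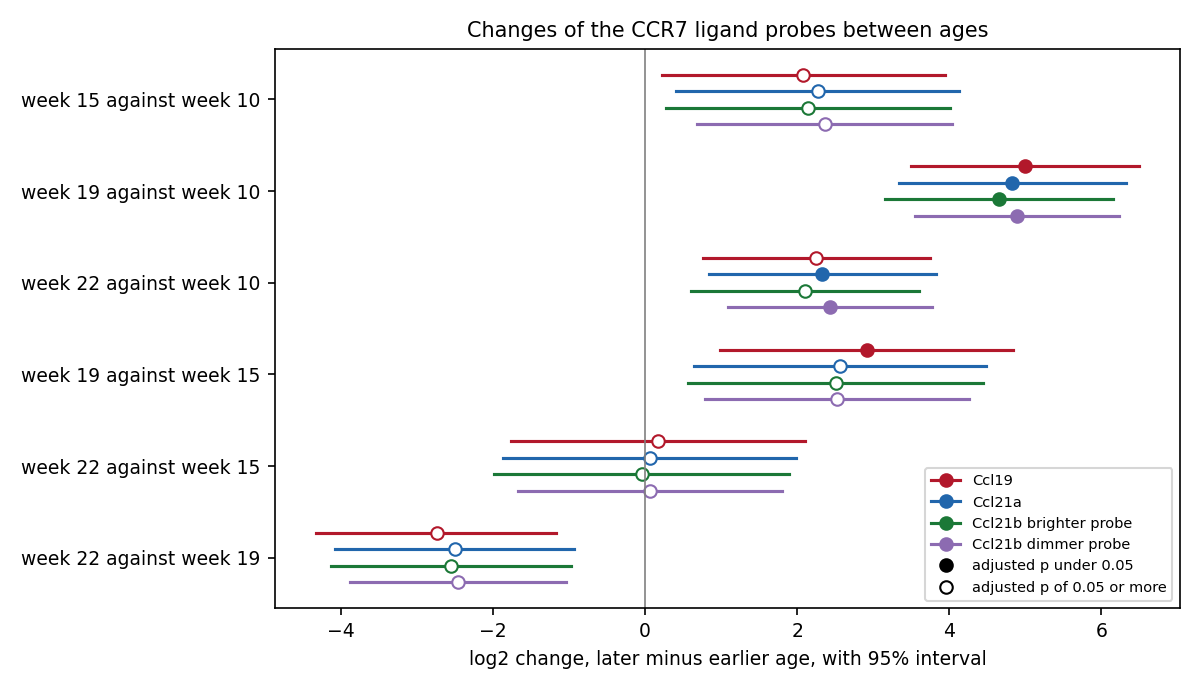
Log2 change (horizontal axis, later minus earlier age) of the 4 chemokine probes in the 6 comparisons of ages, with 95% intervals and filled points where the limma adjusted p was under 0.05. The 4 probes lie together in every comparison, near 5 for week 19 against week 10 and near 0 for week 22 against week 15.

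The oldest glands, of week 22, were also set against the youngest. These contrasts share the week 10 arrays with the week 19 contrasts. Ccl21a rose 5.01-fold (2.33 ± 0.69, limma adjusted p = 0.0445) and the dimmer Ccl21b probe 5.39-fold (2.43 ± 0.62, limma adjusted p = 0.0239). Ccl19, at 2.25 ± 0.69 (95% interval 0.76 to 3.75, limma adjusted p = 0.0508), and the brighter Ccl21b probe, at 2.10 ± 0.70 (0.60 to 3.60, limma adjusted p = 0.0664), did not pass. So 2 of 4 probes passed as higher, against 7.78% of all kept probes. The lowest week 22 array lay 0.18 above the highest week 10 array for Ccl21a and 0.08 above it for the dimmer Ccl21b probe. The ages overlapped for Ccl19 and the brighter Ccl21b probe, whereas 10.0% of kept probes had every week 22 array above every week 10 array.

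The week 22 difference was not the same in all batches. None of the 4 probes passed when scan day was a block (limma adjusted p = 0.07 to 0.121) or when array series was one (limma adjusted p = 0.053 to 0.13), while the changes stayed between 2.07 and 2.53. Within scan day 1, with 1 array against 4, they were 1.70 for Ccl19, 1.08 for Ccl21a, 0.83 for the brighter and 0.95 for the dimmer Ccl21b probe. Within scan day 2, with 3 against 1, they were 1.36, 2.43, 2.35 and 2.76 in the same order. Within array series 3, with 1 against 2, the changes were 0.20, 0.35, 0.11 and 0.83. Within series 4, with 2 against 3, they were 3.86, 4.06, 3.83 and 4.08, and in that batch all 4 probes passed, as did 306 of all kept probes as higher (limma adjusted p = 0.0158 to 0.0309). The series 4 arrays of week 22 were replicates 3 and 4. Without these 2 arrays the changes were 1.28, 0.93, 0.68 and 1.12, and none passed. Single arrays also decided calls. Ccl21a kept its call only without week 22 replicate 1 or 2, and without any 1 of the other 7 arrays of these ages its change ran from 1.83 (week 22 replicate 4) to 2.49 (week 10 replicate 4) with limma adjusted p from 0.0525 to 0.148. The dimmer Ccl21b probe lost its call without week 10 replicate 2 (2.22), week 22 replicate 3 (2.02) or week 22 replicate 4 (1.97). Ccl19 passed without week 10 replicate 5 (2.55), week 22 replicate 1 (2.54) or week 22 replicate 2 (2.62), and the brighter Ccl21b probe without week 22 replicate 1 (2.54) or 2 (2.61). Without the 3 week 10 arrays with hair RNA they were 1.63, 2.22, 2.10 and 2.43, and none passed (limma adjusted p = 0.101 to 0.275).

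**Figure D3:**
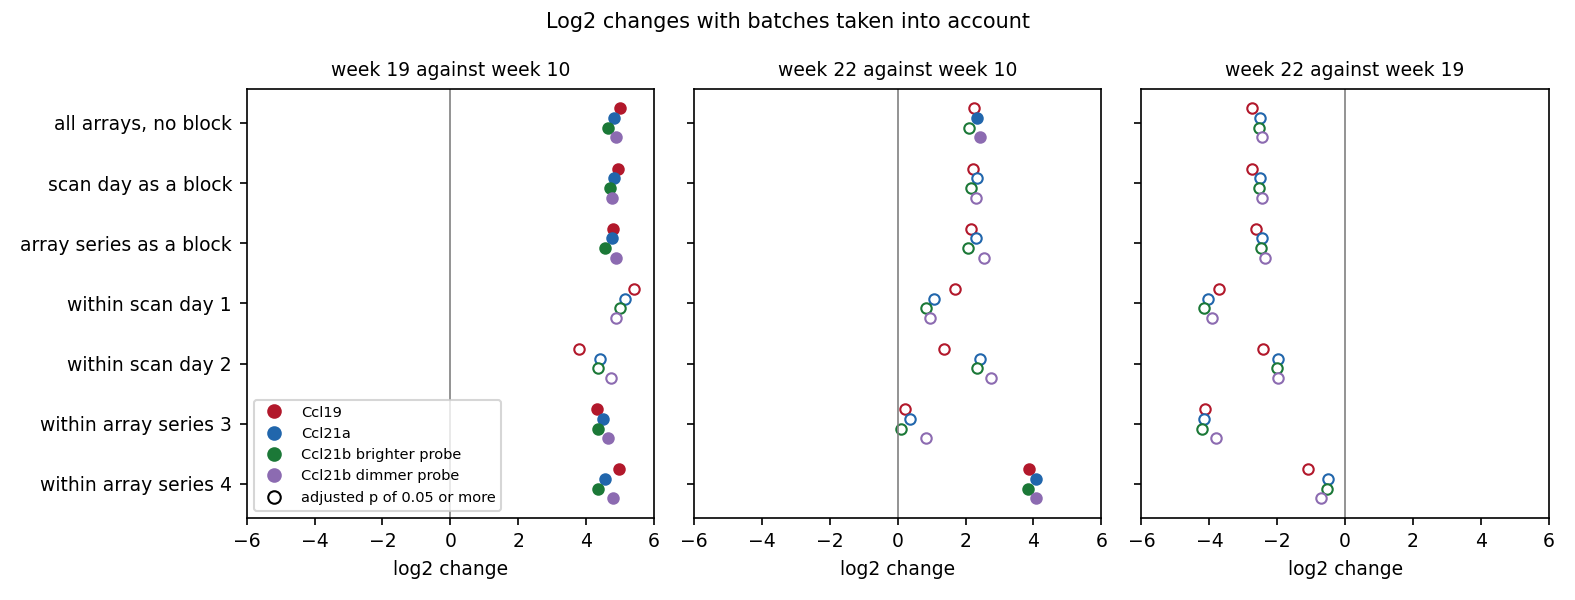
Log2 change (horizontal axis) of the 4 chemokine probes in 3 comparisons of ages, with all arrays, with a batch as a block and within single batches (rows), open points having a limma adjusted p of 0.05 or more. The week 19 against week 10 changes stay between 3.78 and 5.42, and those of week 22 against week 10 run from 0.11 in series 3 to 4.08 in series 4.

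Between the late ages, week 22 signals lay below week 19 signals in every probe, but none of these differences passed the test. Ccl19 had a change of -2.74 ± 0.73 (95% interval -4.32 to -1.17, limma adjusted p = 0.391), a level 6.70-fold lower at week 22. Ccl21a had -2.50 (-4.08 to -0.93, limma adjusted p = 0.454), the brighter Ccl21b probe -2.55 (-4.13 to -0.97, limma adjusted p = 0.434) and the dimmer -2.46 (-3.88 to -1.04, limma adjusted p = 0.395). The share of all kept probes that passed as lower at week 22 was 0%, and 1527 had an unadjusted p under 0.05. For Ccl19 the unadjusted p of limma was 0.00231. In all 4 chemokine probes every week 22 array lay below every week 19 array, as was so for 2.66% of kept probes. The gaps were 0.96 for Ccl19, 0.42 for Ccl21a, 0.34 for the brighter and 0.64 for the dimmer Ccl21b probe. Ordered by size of decrease among all kept probes, the 4 probes took places 24, 36, 32 and 40.

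The changes between week 22 and week 19 were -2.74, -2.50, -2.55 and -2.46 when scan day was a block, and -2.64, -2.44, -2.49 and -2.36 when array series was one. Within scan day 1, with 1 array against 1, they were -3.72 for Ccl19, -4.05 for Ccl21a, -4.16 for the brighter and -3.92 for the dimmer Ccl21b probe. Within scan day 2, with 3 against 3, they were -2.42, -1.99, -2.01 and -1.97. Within array series 3, with 1 against 2, the changes were -4.12, -4.17, -4.23 and -3.81. Within series 4, with 2 against 1, they were -1.10, -0.51, -0.53 and -0.71. None of these within-batch values passed. Without week 22 replicates 3 and 4, which were the 2 highest arrays of that age for these probes, 3 of 4 probes passed as lower, as did 59 of all kept probes, with changes of -3.90 for Ccl21a, -3.97 for the brighter and -3.77 for the dimmer Ccl21b probe (limma adjusted p = 0.0341, 0.0297 and 0.0216), while Ccl19 did not pass (-3.72, limma adjusted p = 0.106).

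**Figure D4:**
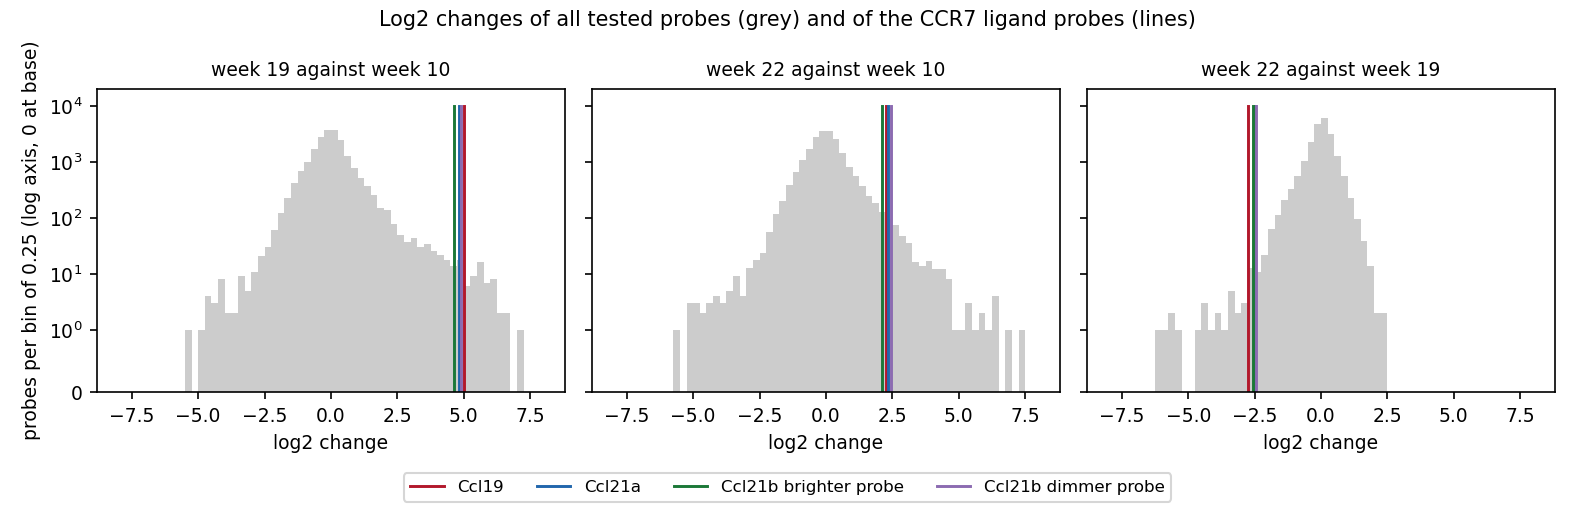
Number of kept probes (vertical log axis, with 0 at its base) per bin of log2 change, for 3 comparisons of ages, with vertical lines at the changes of the 4 chemokine probes. The lines lie far out on the upper side for week 19 against week 10 and on the lower side for week 22 against week 19.

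Week 15 had 2 arrays, which stood far apart. Against week 10, Ccl19 had a change of 2.08 (95% interval 0.22 to 3.95), Ccl21a 2.27 (0.41 to 4.13), the brighter Ccl21b probe 2.15 (0.28 to 4.01) and the dimmer 2.37 (0.69 to 4.04), with limma adjusted p between 0.357 and 0.394. None passed, and of all kept probes 0.0192% passed as higher. Ccl21a and the dimmer Ccl21b probe had both week 15 arrays above all week 10 arrays, as did 7.11% of kept probes. The change of Ccl19 was 4.04 within scan day 1, -0.75 within scan day 2, where 1 array stood against 1, and 1.05 within array series 4. For Ccl21a, the brighter and the dimmer Ccl21b probe it was 3.80, 3.67 and 3.51 within scan day 1, 0.48, 0.48 and 1.09 within scan day 2, and 1.16, 0.98 and 1.60 within series 4. Each of these fits holds 1 week 15 array, which has no spread of its own. Without week 15 replicate 2, the low array, the change of Ccl19 was 3.74, and without replicate 1 it was 0.42.

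Week 19 lay above week 15 in every array of the 4 probes. Ccl19 rose 7.54-fold (2.92 ± 0.90, limma adjusted p = 0.0477). Ccl21a (2.56, 95% interval 0.64 to 4.49), the brighter Ccl21b probe (2.51, 0.57 to 4.44) and the dimmer (2.53, 0.79 to 4.26) did not pass (limma adjusted p = 0.0707, 0.0773 and 0.0536). The 1 probe of 4 that passed compares with 6.66% of all kept probes, and the lack of overlap with 18.8% of them. With scan day as a block the change of Ccl19 was 2.89 (limma adjusted p = 0.0663), and a block of array series gave 2.85 (limma adjusted p = 0.17). Without week 15 replicate 2 its change was 1.25 (limma adjusted p = 0.381) and without week 15 replicate 1 it was 4.58, and without any 1 of the week 19 arrays the call was lost at 2.83 to 3.14 (limma adjusted p = 0.0725 to 0.0891). Its change was 1.39 within scan day 1, 4.53 within scan day 2 and 3.91 within array series 4.

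Between week 22 and week 15 none of the probes passed, against 5.68% of kept probes that were higher and 3.08% that were lower. The differences were 0.17 for Ccl19 (95% interval -1.76 to 2.10), 0.06 for Ccl21a (-1.86 to 1.98), -0.04 for the brighter Ccl21b probe (-1.98 to 1.89) and 0.07 for the dimmer (-1.67 to 1.80). The ages overlapped in all 4 probes. The intervals are wide on both sides of 0, so equal levels are not shown.

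The spread between animals of the same age was wide at weeks 15 and 22. At week 15, with 2 arrays, the SD values of Ccl19, Ccl21a and the brighter and dimmer Ccl21b probes were larger than those of 98.3%, 96.8%, 97% and 92.4% of kept probes. At week 10 the SD of Ccl19 was larger than that of 90.1% of kept probes, and those of the other probes than 66.4%, 58.6% and 68.1%. The SD of Ccl19 at week 22 was larger than that of 94.2% of kept probes, and the SD values of Ccl21a and of the brighter and dimmer Ccl21b probes were larger than those of 98.9%, 99% and 98.5%. The median SD of a kept probe at week 22 was 0.39. At week 19 the chemokine SD values were larger than those of 63.4%, 59.2%, 60.5% and 52.2% of kept probes, in the same order of probes, with a median of 0.34. At week 22, replicates 3 and 4 were the high arrays and replicates 1 and 2 the low ones, a range of 2.22 for Ccl19 and 2.96 for Ccl21a. At week 15, replicate 1 stood 3.32 above replicate 2 for Ccl19 and 2.89 above it for Ccl21a.

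The high and low arrays of week 15 sorted by batch in another way than those of week 22. In array series 2, the week 15 array was the high one of its age and the week 22 array was a low one. In array series 4, the week 15 array was the low one and both week 22 arrays were the high ones. The week 22 array of series 3 was a low one. At week 10 both series 3 arrays lay above all series 4 arrays in every chemokine probe. For Ccl19 these were 12.03 and 12.47 against 10.54, 10.09 and 11.38. At week 19 the series 4 array was the lowest in every chemokine probe. Both high week 22 arrays and 1 of the low ones, replicate 2, were of scan day 2, and the other low one was of scan day 1. At week 15 the high array was of scan day 1 and the low one of scan day 2. The median raw signals of week 22 replicates 1 to 4 were 849.6, 1059, 1117 and 1626, and those of week 15 replicates 1 and 2 were 650.2 and 952.8. The part of batch or of raw brightness in these splits was not tested.

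Levels of Ccl19 and of the Ccl21 probes were also set side by side array by array. By Ccl19 the 15 arrays fell into 8 lower ones, from 10.09 to 12.71, and 7 higher ones, from 14.40 to 16.57. The 8 lower ones were all 5 of week 10, 1 of week 15 and 2 of week 22, and the 7 higher ones were 1 of week 15, all 4 of week 19 and 2 of week 22. These sets were drawn by Ccl19 itself and mix ages. The correlations within them are therefore given as a description, without p-values, and in part restate the difference between ages. Among the 7 higher arrays Ccl19 had a Pearson r of 0.97 with Ccl21a, 0.97 with the brighter and 0.93 with the dimmer Ccl21b probe (Spearman rho 0.93, 0.93 and 0.86). Among the 8 lower arrays r was 0.87, 0.83 and 0.75 in the same order (rho 0.81, 0.76 and 0.67). Without the 2 arrays farthest from the median of Ccl19 in their set, r was 0.99, 0.97 and 0.96 in the higher arrays and 0.63, 0.51 and 0.36 in the lower ones, so in the lower set it rested in part on those 2 arrays. Taken as deviations from the mean of each age over 15 arrays, the r of Ccl19 was 0.92 with Ccl21a, 0.90 with the brighter and 0.87 with the dimmer Ccl21b probe. In each of these probes the SD was largest at weeks 15 and 22. This r therefore in part restates the split of those ages into high and low arrays.

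Other parts of this pathway could hardly be seen, since only 0.945% of the probes carry a gene name. Of 225 genes in 12 lists, 17 could be named on the array. The lists were drawn up with earlier results of these data known, so counts from them are no independent test. Among 13 genes of the CCR7 pathway only the 3 ligands were among them, and the receptor Ccr7 was not. None of 53 other chemokines and chemokine receptors, 17 genes of lymph node stroma and high endothelial venules, 20 T cell genes or 18 B cell and plasma cell genes could be named. How much lymph node tissue each sample held was therefore not measured here. The lymphatic vessel list had 1 of 12 nameable, Ccl21a itself.

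Of 26 genes listed for signals of lymphoid tissue, Tnfsf13 and Tnfrsf13b could be named. Tnfsf13 encodes APRIL, a cytokine of the TNF family that acts on B cells and plasma cells. It had 15.00, 15.24, 15.31 and 15.11 at week 19, against 14.34, 13.82, 13.54, 13.98 and 13.65 at week 10. It rose by 1.30 ± 0.18 (limma adjusted p = 0.000513), with no overlap between these ages. Of all kept probes 7.28% passed as higher, and 9.37% had every week 19 array above every week 10 array. Tnfrsf13b, a receptor for APRIL, was above background on 1 of 15 arrays and was not tested.

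Leukocyte genes were also higher at week 19. Of 17 general leukocyte genes 4 could be named. Of these 4, 3 rose at week 19 against week 10, with a median change of 1.29 over the 4. Of all kept probes 7.28% rose, and the median change of all kept probes was -0.02. The list was drawn up with earlier results of these data known, so this count is a description and no independent test. Bcl2a1b, a leukocyte survival gene with close copies in the genome, rose by 1.99 ± 0.24 (limma adjusted p = 0.000206) and Lst1, a transcript of myeloid and lymphoid cells, by 1.12 ± 0.20 (limma adjusted p = 0.0039). The class I gene H2-Q7 did not pass (0.59, limma adjusted p = 0.0682), and the remaining one that rose was H2-Q8, named here after its values were seen. Against week 19, week 22 differed by -0.24 for Bcl2a1b, 0.00 for Lst1 and 0.00 for Tnfsf13, and none passed (limma adjusted p = 0.888, 0.998 and 0.998).

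At week 22 the leukocyte genes differed less between arrays, in log2 units, than the chemokines did. Bcl2a1b had 15.88, 15.49, 15.75 and 15.72 in week 22 replicates 1 to 4, Lst1 had 14.29, 14.08, 13.88 and 13.84, and Tnfsf13 had 15.01, 15.17, 15.02 and 15.48. Their ranges over the 4 arrays were 0.40, 0.45 and 0.47, against 2.22 for Ccl19 and 2.96 for Ccl21a. Their rises at week 19 against week 10 were also smaller, at 1.99, 1.12 and 1.30, against 5.00 for Ccl19 and 4.83 for Ccl21a. The ranges were not scaled to these rises. Lst1 was slightly higher in replicates 1 and 2 than in replicates 3 and 4, the reverse of the chemokines, and so was H2-Q7 (19.71, 20.04, 19.37 and 19.47), whereas H2-Q8 had 13.61, 13.07, 13.45 and 13.20. At week 15, Bcl2a1b had 15.22 in replicate 1 and 13.98 in replicate 2, the order seen for the chemokines, and Lst1 had 13.12 and 12.38. The order was the opposite for Tnfsf13, with 13.94 and 14.11, for H2-Q7, with 18.92 and 19.60, and for H2-Q8, with 10.78 and 12.56.

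Genes of other tissue parts were set beside the chemokines too. Csn2, which encodes beta-casein, had 14.16, 17.80, 15.14 and 15.33 in week 22 replicates 1 to 4, so the array with the most of it was 1 of the low chemokine arrays. Aoc3 had 19.14, 18.82, 17.88 and 17.43 on the same arrays and was higher on the 2 with low chemokine signal. Of 14 milk and luminal genes 4 could be named, and 2 of 4 rose at week 19 against week 10, beside 7.28% of all kept probes. Of 10 adipose genes Aoc3 alone could be named, and it fell by 1.54 ± 0.42 at week 19 (limma adjusted p = 0.0288). Of 10 hair and skin genes 3 could be named and none passed. The part of tissue make-up in the chemokine values was not tested.

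**Figure D5:**
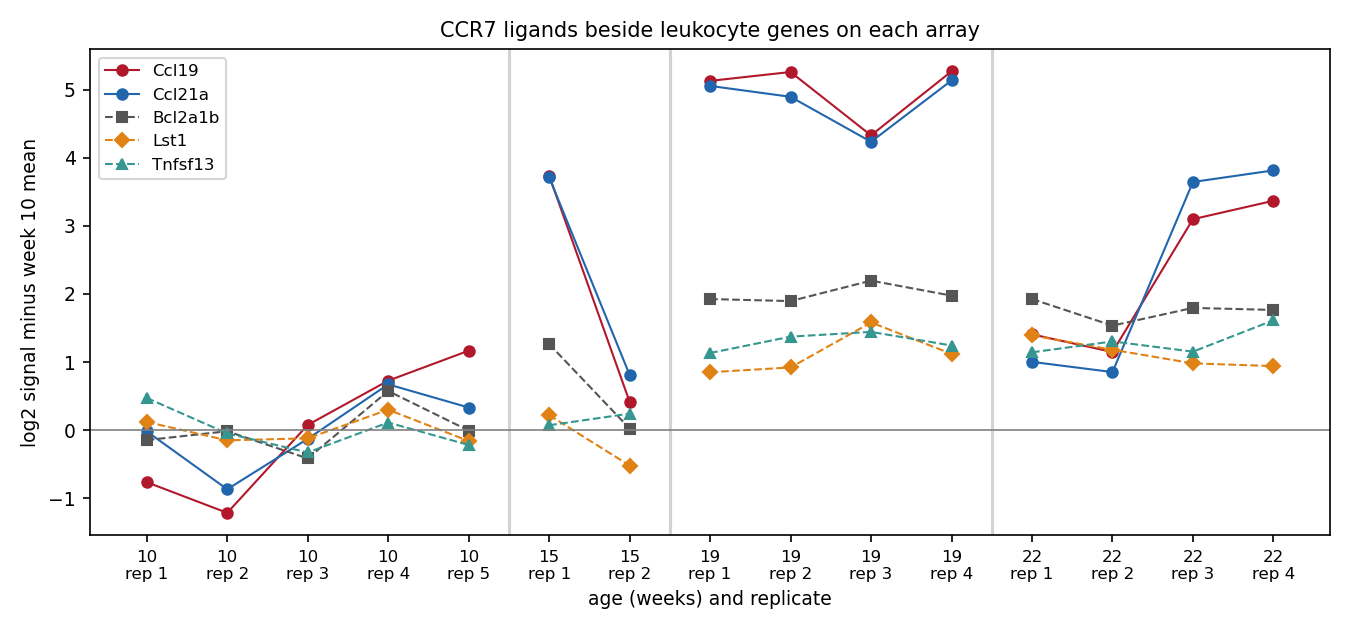
Log2 signal minus the week 10 mean of the same gene (vertical axis) for Ccl19, Ccl21a and the leukocyte genes Bcl2a1b, Lst1 and Tnfsf13 on each of the 15 arrays, ordered by age in weeks and replicate. At week 22 the chemokines are high in replicates 3 and 4 and low in 1 and 2, while Bcl2a1b, Lst1 and Tnfsf13 range over 0.40 to 0.47.

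The probes whose levels were most like those of Ccl19 over the 15 arrays were Ccl21a (Pearson r = 0.98) and an unnamed probe, mCG15918.2 (r = 0.98), followed by the brighter Ccl21b probe (r = 0.98). Next came the unnamed probe mCG21199.1 and the dimmer Ccl21b probe (r = 0.98 and 0.97). These r values describe arrays that share ages and batches and have no test. The probe mCG15918.2 had 15.89, 15.69, 15.14 and 15.86 at week 19, against 11.81, 11.81, 12.51, 12.53 and 12.36 at week 10, and it split at week 22 as the chemokines did, with 12.82, 12.83, 14.75 and 14.81. In all, 20 unnamed probes (with these 2) and 0 named genes other than the members had an r over 0.95. Members aside, 147 probes, 0.704% of those kept, had an r over 0.9. Of the named genes the nearest by level was Bcl2a1b, with r = 0.83 (0.57 for deviations from age means). By deviations Etd (0.64), Prr18 (0.63), Mapk1ip1l (0.62) and Mprip (0.60) were nearer. By level, C130026I21Rik (0.77, and 0.24 for deviations) came next, then the splicing factor gene Sf3b5 (0.73 and -0.02), Tmem251 (0.70 and 0.44) and Tnfsf13 (0.66 and -0.19).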

How the data were processed

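Total RNA of mammary gland whole mounts was labelled with digoxigenin and hybridised to 1-colour AB1700 mouse arrays, per the labels' protocols. Per the file headers, the deposited scanner output lists a linear signal intensity, a score for signal over noise and a flag for spot quality. The sources used here do not give how background was handled. On an array 31.6% to 39% of probes had a signal-to-noise ratio under 1, and for 100% of these the signal equalled its SD. These values entered the quantile normalization. A value table from the authors holds log2 values with a median of 10.03 on each array, whose order of probes is that of the scanner signals (Spearman rho 1.0000); its offset is unknown and it served only as an alternative.

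Signals of 33012 probes (303 control spots left out) were taken to log2 and quantile normalized over 15 arrays. Probes above background on 50% or more of an age's arrays were tested in 1 fit with age as 4 levels by limma 3.58.1 (lmFit, eBayes, two-sided tests; R 4.3.3), with Benjamini-Hochberg adjustment over 20867 probes and a threshold of 0.05. The ages share 1 estimate of spread, so week 15 is assumed to vary like the others. The code was tested on simulated data. Arrays fell into separate lower and higher sets by Ccl19, so the planned test of correlation over all arrays was left out. Correlations within each set, over 15 arrays and of deviations from age means are given as a description. Permutation tests run within the sets are not used, because the sets were drawn by Ccl19 itself. Names came from RefSeq accessions matched to the GRCm38.p6 table (312 probes, 306 genes), used only for names, neighbours and promoters. Named genes were all probes of the members, the nameable genes of the pathway lists, up to 3 of the highest mean signal in each marker list, and the 5 named genes and 2 unnamed probes most correlated with Ccl19. Members and lists were chosen with earlier results of these data known. Alternatives were other scalings, filters, array weights, batches as blocks or alone, and arrays left out.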

Additional observations from a re-analysis of the deposited data

Results flagged for a closer look

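Of 12 sets of 4 or 5 arrays of 1 probe and 1 age, 1 had an array set apart from the rest by Dixon's ratio, the gap to the nearest array divided by the whole range. It was Ccl19 at week 19, where replicate 3 had 15.63 and the other arrays had 16.43, 16.56 and 16.57. The ratio was 0.853, above the critical value for 4 arrays at the 95% level. With 12 sets checked, chance alone can give such a ratio. Replicate 3 was also the lowest week 19 array for Ccl21a (17.48) and for the brighter and dimmer Ccl21b probes (17.99 and 17.80), where the ratio was not above that value.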

How the results depend on the processing

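The rise at week 19 against week 10 kept its direction in all 4 probes under every alternative run, and all 4 passed in each of them except within a scan day, where 0 passed. Within scan day 1 the changes were 5.42 for Ccl19, 5.14 for Ccl21a and 4.99 for the brighter Ccl21b probe, and within scan day 2 they were 3.78, 4.42 and 4.36. These fits hold 1 array against 4 and 3 against 1. With arrays left out, singly or as the sets named here, the changes ranged from 4.37 to 5.29 for Ccl19, from 4.61 to 5.03 for Ccl21a and from 4.51 to 4.85 for the brighter Ccl21b probe.

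At week 22 against week 10, where 2 of 4 probes passed, the count was 4 with median centring of the arrays, with no normalization, with only probes above background on every array of an age, with array weights and within array series 4. Calls moved over all probes too: 1623 were higher and 872 lower in the analysis reported, 2674 and 500 with median centring, where the median change was 0.14, 1324 and 134 with no normalization, 1875 and 1098 with the stricter filter, 2747 and 2411 with array weights, and 306 and 144 within series 4. The count was 1 with no filter on dim probes, beside 1173 of all probes as higher. It was also 1 with only the arrays of the 2 ages, beside 1158 of all kept probes. It was 0 with either batch as a block, within both scan days and within array series 3. The change of Ccl19 passed at 2.37 with median centring, 2.53 with no normalization, 2.25 with the stricter filter, 2.55 with array weights and 3.86 within series 4. In the same order the brighter Ccl21b probe passed at 2.30, 2.45, 2.10, 2.73 and 3.83. The call of Ccl21a was lost with no filter (2.33), with a block of scan day (2.33) or array series (2.30), within scan day 1 (1.08), scan day 2 (2.43) and series 3 (0.35), without the 3 week 10 arrays with hair RNA (2.22), and with only the arrays of the 2 ages (2.33). With single arrays left out 0 to 4 probes passed, beside 904 to 1590 of all kept probes as higher. The change then ranged from 1.88 to 2.62 for Ccl19, from 1.83 to 2.82 for Ccl21a and from 1.56 to 2.61 for the brighter Ccl21b probe. Without week 22 replicates 3 and 4 together 0 passed, with 1.28, 0.93 and 0.68. The cause was not tested.

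At week 22 against week 19, 0 probes passed in every alternative except without week 22 replicates 3 and 4, where 3 did, beside 59 lower and 13 higher of all kept probes. The changes with arrays left out ranged from -3.72 to -2.37 for Ccl19, from -3.90 to -2.01 for Ccl21a and from -3.97 to -2.04 for the brighter Ccl21b probe. At week 19 against week 15, where 1 probe passed, 2 passed under the stricter filter and 1 with the deposited value table. Beside these, 1703 and 1373 of all kept probes passed as higher. The count was 0 with median centring, the 75th percentile, no normalization, no filter, either block, array weights, only the arrays of the 2 ages, and within scan day 1, scan day 2 and series 4. With any 1 week 19 array left out the count was 0. Leaving out a week 15 array leaves 1 of that age, and Ccl19 then had 4.58 without replicate 1 and 1.25 without replicate 2. Without week 22 replicates 3 and 4 the count was 4, beside 1364 of all kept probes as higher. At week 15 against week 10, no probe passed in the alternatives that kept both week 15 arrays. In fits with 1 week 15 array, Ccl19 had 4.04 within scan day 1 and 3.74 without week 15 replicate 2. It reversed to -0.75 within scan day 2. Any difference among the 4 ages passed for 0 probes within scan day 1 and for 0 within scan day 2. The fit within series 4 holds 1 array at week 15 and 1 at week 19, so its calls are not read here.

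The difference between week 22 and week 15, near 0, changed sign in several settings. It was -2.34 for Ccl19, -2.71 for Ccl21a and -2.56 for the dimmer Ccl21b probe within scan day 1. With the 75th percentile it was -0.17 for Ccl21a and -0.16 for the dimmer Ccl21b probe, which had -0.04 with a block of array series. The brighter Ccl21b probe had 0.46 with no normalization, 0.78 with array weights, 1.87 within scan day 2 and 2.85 within series 4. Without week 22 replicates 3 and 4 it was -0.81, -1.34 and -1.25 for Ccl19, Ccl21a and the dimmer Ccl21b probe. With single arrays left out the difference ranged from -1.49 to 1.83 for Ccl19, from -1.39 to 1.51 for Ccl21a, from -1.52 to 1.43 for the brighter and from -1.03 to 1.16 for the dimmer Ccl21b probe. The cause was not tested.

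At week 22 against week 15 the median over all kept probes was 0.56 without normalization and -0.04 with it. No paired analysis was possible because the labels give no replicate numbers and those used here only name the arrays. Correlations within scan days were not run. Signal over background limits Ccl19 most, at week 10.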
